A study of Homo sapiens and Homo sapiens
Mus musculus with 19 samples.

Results

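The genes described here lie on the short arm of human chromosome 5 (5p), between its tip and the centromere, whose gap in the GRCh37 sequence runs from base 46405642 to base 49405641. The list holds 49 genes of the 57820 in the human table, and it was selected on measured values, since the arm had lower RNA levels in Control than in sgTWIST1 samples as a whole. All 49 were found on 5p, each once, among 615 annotated genes of the arm in the table. Of these 615, 141 were protein-coding and 80 passed the expression threshold, log2 RPKM above 1 in at least 1 sequenced library. Of the 49, 42 passed it and were tested. The other 7, CTNND2, MYO10, RAI14, OSMR, DAB2, PTGER4 and GHR, did not pass and are given as counts.

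RNA was sequenced from SK-N-Be2c, a human neuroblastoma line with amplified MYCN. Control cells are called wild-type in the labels, and sgTWIST1 cells are the same line with TWIST1 knocked out by genome editing. Each cell group had 3 samples, labelled as clones 1 to 3, and the study's supplement describes the sgTWIST1 line as a pool of edited clones. Tumors were 4 Control and 4 sgTWIST1 xenografts grown in the left adrenal gland of athymic Swiss nude mice (Crl:NU(Ico)-Foxn1nu), referred to in the study as ortho_1. Both tumor groups thus came from the same parental line as the cells, in hosts that lack T cells. Nothing in the labels ties a tumor to one clone, and p-values measure the spread between these samples. The labels name different extraction kits for tumors and cells, whereas the study's methods name a single kit. Tumor and cell RNA also differed in input amount and sequencing lanes, so tumor growth and RNA handling cannot be told apart.

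A chromosome arm is a physical neighbourhood and not a pathway, so its genes have unrelated functions. Neuroblastoma cells often carry gains and losses of chromosome segments, and the genes of such a segment are gained or lost together. DNA copy number was not measured in these samples. Genes placed head to head share a stretch of promoter from which both are transcribed in opposite directions. TWIST1 is a basic helix-loop-helix factor that binds E-boxes, the motif CANNTG, as a dimer with E-proteins.

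RefSeq promoters of GRCh38.p14, from 250 bases before to 50 bases after the gene start, were matched for 42 of the 49 genes. A single window per gene was used. Some genes have more entries, such as FAM134B and NNT with 2 each, and their other windows are not described. CMBL, DAP, MTRR, NSUN2, PAPD7, PDZD2 and SUB1 had no entry. The promoters below are shown because they bear on the results: the windows of SKP2 and BRIX1 are each shared with a neighbour, FAM134B and BASP1 differed between tumors and cells in the Control line, and NNT holds 2 copies of the E-box variant CAGATG, which reads CATCTG on the other strand, found otherwise only in DAB2. Capitals mark E-boxes (CANNTG, which reads the same on both strands), and the windows of SKP2 and BRIX1 contain none.
SKP2, chr5:36151861-36152160, plus strand: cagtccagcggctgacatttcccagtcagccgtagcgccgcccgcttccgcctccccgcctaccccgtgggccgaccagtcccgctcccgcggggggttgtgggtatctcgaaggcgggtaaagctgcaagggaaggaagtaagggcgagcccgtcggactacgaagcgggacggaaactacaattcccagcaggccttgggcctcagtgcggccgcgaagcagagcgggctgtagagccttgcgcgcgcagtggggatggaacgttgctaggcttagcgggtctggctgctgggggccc
BRIX1, chr5:34915461-34915760, plus strand: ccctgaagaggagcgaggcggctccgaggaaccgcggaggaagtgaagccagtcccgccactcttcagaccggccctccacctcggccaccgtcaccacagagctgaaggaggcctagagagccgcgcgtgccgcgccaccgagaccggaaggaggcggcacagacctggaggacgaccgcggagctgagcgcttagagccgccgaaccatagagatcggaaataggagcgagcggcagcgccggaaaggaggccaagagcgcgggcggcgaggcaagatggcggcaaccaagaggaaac
FAM134B (RETREG1 in RefSeq), chr5:16616948-16617247, minus strand: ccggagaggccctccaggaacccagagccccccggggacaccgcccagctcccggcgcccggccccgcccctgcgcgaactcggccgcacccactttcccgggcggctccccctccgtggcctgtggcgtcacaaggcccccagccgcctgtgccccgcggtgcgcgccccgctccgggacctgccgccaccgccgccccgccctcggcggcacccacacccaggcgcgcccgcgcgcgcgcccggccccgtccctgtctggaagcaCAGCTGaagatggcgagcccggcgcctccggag
BASP1, chr5:17216573-17216872, plus strand: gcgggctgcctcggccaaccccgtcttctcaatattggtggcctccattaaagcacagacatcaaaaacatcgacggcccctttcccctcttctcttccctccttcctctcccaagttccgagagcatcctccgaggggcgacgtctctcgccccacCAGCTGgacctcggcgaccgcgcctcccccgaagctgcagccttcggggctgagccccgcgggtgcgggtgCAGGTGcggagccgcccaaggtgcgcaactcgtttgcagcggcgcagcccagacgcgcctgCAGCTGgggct
NNT, chr5:43602425-43602724, plus strand: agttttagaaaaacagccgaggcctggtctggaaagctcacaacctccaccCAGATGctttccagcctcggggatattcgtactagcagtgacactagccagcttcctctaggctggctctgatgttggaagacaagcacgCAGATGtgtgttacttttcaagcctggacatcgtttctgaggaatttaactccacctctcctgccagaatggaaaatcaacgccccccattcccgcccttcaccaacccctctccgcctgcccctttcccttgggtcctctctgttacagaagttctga
An E-box was present in 20 of the 42 promoters (47.6%), beside 68.9% of 27305 promoters of the same length across all genes and 58.8% of the 8876 promoters of tested genes. CATCTG or CAGATG, which are themselves E-boxes, was found in 2 of the 42 (4.76%), against 14.8% and 8.66%, and CACGTG in 3 (7.14%), against 7.43% and 10.4%. The median GC content of the 42 windows was 67.8%, compared with 65.7% for tested genes. A match is only a description of the letters, and its absence says nothing of binding.

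Human counts per sample ranged from 21426499 to 49990985. TWIST1 was at 68.0, 73.5 and 62.0 CPM (counts scaled to library size by the trimmed mean of M-values) in Control cells and at 33.8, 33.2 and 22.8 in sgTWIST1 cells. In tumors it ranged from 85.0 to 104 CPM in Control and from 24.9 to 48.6 in sgTWIST1, so the groups did not overlap. All 12 neuroblast markers passed the threshold, with a summed level from 5051 to 11185 CPM, although TH was near 0 in sgTWIST1 cells. The fibroblast list summed to 45.6 to 109 CPM in Control cells, 308 to 497 in sgTWIST1 cells, 22.5 to 41.1 in Control tumors and 71.3 to 215 in sgTWIST1 tumors. DCN and LUM carried these sums, and COL1A1, COL1A2 and COL3A1 did not pass the threshold. Human leukocyte, endothelial and adrenal cortex lists summed to at most 16.1, 36.7 and 15.4 CPM. Murine counts were 2.44% to 12.7% of each Control tumor and 3.77% to 13.97% of each sgTWIST1 tumor. RN7SL1, a non-coding RNA, took up to 16.2% of human counts, in Control tumor 3. The part of these values in the results below was not tested.

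Most 5p genes had lower RNA levels in Control than in sgTWIST1 samples, in culture and in tumors, by a similar and moderate amount. The median log2(FC), for Control relative to sgTWIST1, was −0.67 over the 42 tested members in cells and −0.52 in tumors, beside 0.00 over all genes tested in each. The interquartile range of the members ran from −0.93 to −0.45 in cells and from −0.99 to −0.32 in tumors. The sign was negative for 40 of 42 members in cells, for 39 of 42 in tumors and for the same 39 in both. These contrasts chose the list, so they are given as a description and carry no test.

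**Figure D1:**
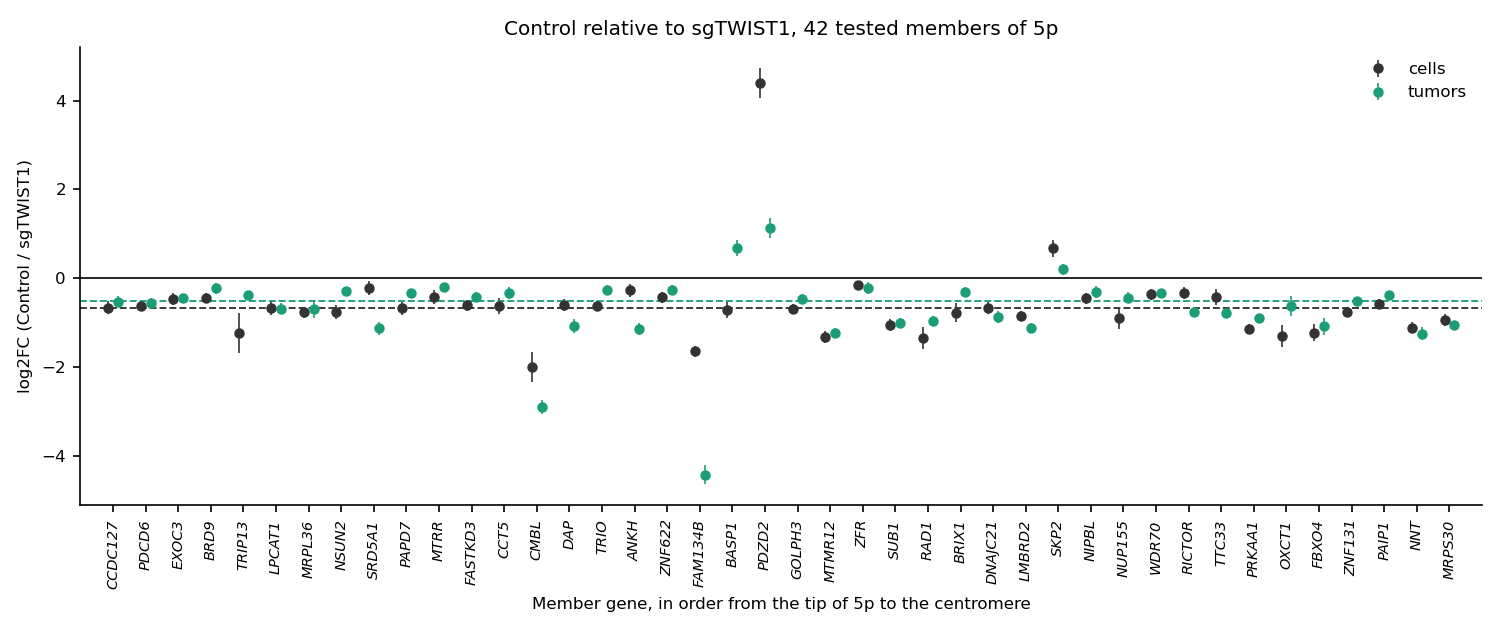
Log2(FC) of Control relative to sgTWIST1 (vertical axis, with standard error) for the 42 tested members in their order along 5p, in cells (black) and tumors (green). Dashed lines mark the medians of −0.67 and −0.52; PDZD2 and SKP2 lie above 0 in both, and BASP1 in tumors alone.

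With the thresholds of the study (adjusted p under 0.05 and a change of 1 or more on the log2 scale, either way), 9 members were lower and 1 was higher in Control cells. Over all genes tested these shares were 6.25% and 8.28%. In tumors 11 members were lower and 1 was higher, beside 7.47% and 6.81% of all genes. Without the fold threshold 32 members were lower in Control in cells and 32 in tumors, against a background of 17.1% and 23%. Every Control sample was below every sgTWIST1 sample for 37 of the 42 members in cells and for 31 in tumors, and for 28 in both. Across all genes this held for 26.1% in cells, 22.5% in tumors and 13.1% in both. CMBL, FAM134B, MTMR12, SUB1, FBXO4, NNT and PDZD2 were called in both, RAD1, PRKAA1 and OXCT1 in cells, and SRD5A1, DAP, ANKH, LMBRD2 and MRPS30 in tumors. Whether cells and tumors differed in these members was not tested.

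The shift was also set out sample by sample, relative to the mean of all 14 samples. These samples chose the list, so the values are a description and carry no test. The median deviation of the 42 members from their means over 14 samples, on the log2 scale, was −0.34 ± 0.05 (SD, n = 3) in Control cells and 0.38 ± 0.07 (SD, n = 3) in sgTWIST1 cells. It was −0.29 ± 0.05 (SD, n = 4) in Control tumors and 0.32 ± 0.07 (SD, n = 4) in sgTWIST1 tumors. No Control sample was above −0.22 and no sgTWIST1 sample was below 0.25. The members made up 0.351% to 0.448% of the counts of kept genes in Control samples and 0.585% to 0.691% in sgTWIST1 samples.

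**Figure D2:**
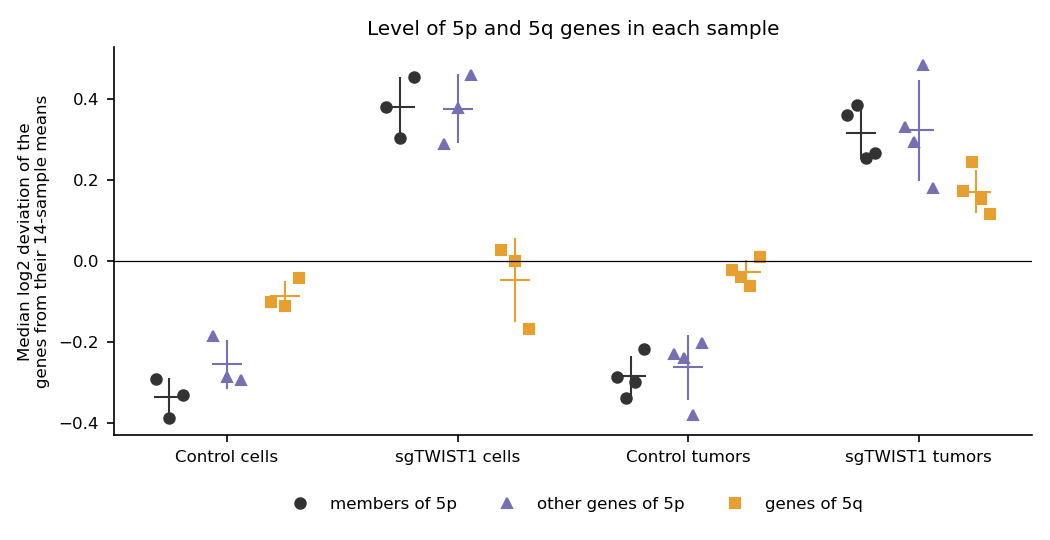
Median log2 deviation from the 14-sample mean (vertical axis) in each sample of the 4 groups, for the members, the other tested genes of 5p and the genes of 5q; crosses give the mean and SD over samples. Members lie from −0.39 to −0.22 in Control samples and from 0.25 to 0.45 in sgTWIST1 samples, and 5q values lie between −0.17 and 0.24.

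The other 38 tested genes of 5p, which were left out of the list, had medians of −0.61 in cells and −0.66 in tumors. Among 41 chromosome arms with at least 30 tested genes, 5p as a whole (80 genes) had the lowest median in cells (−0.66) and in tumors (−0.58). The next lowest were 19p in cells (−0.43) and 13q in tumors (−0.48). The arm was chosen for its lower values in Control, so its rank and the medians of the 38 genes are a description. The 445 genes of 5q had medians of −0.02 and −0.18.

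In windows of 10 Mb, the median of all tested genes was −0.62, −0.62, −0.68 and −0.86 in cells in the windows that start at 0, 10, 30 and 40 Mb of 5p. The corresponding medians in tumors were −0.50, −0.60, −0.62 and −0.82. The window from 20 to 30 Mb held only 2 tested genes and no member. Across the centromere the first window of 5q was at 0.21 in cells and −0.22 in tumors, over 19 genes. The next one, from 60 to 70 Mb, was at −0.74 in cells and −0.65 in tumors, and 28 of its 29 genes were negative in each. The low values were thus not limited to 5p.

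**Figure D3:**
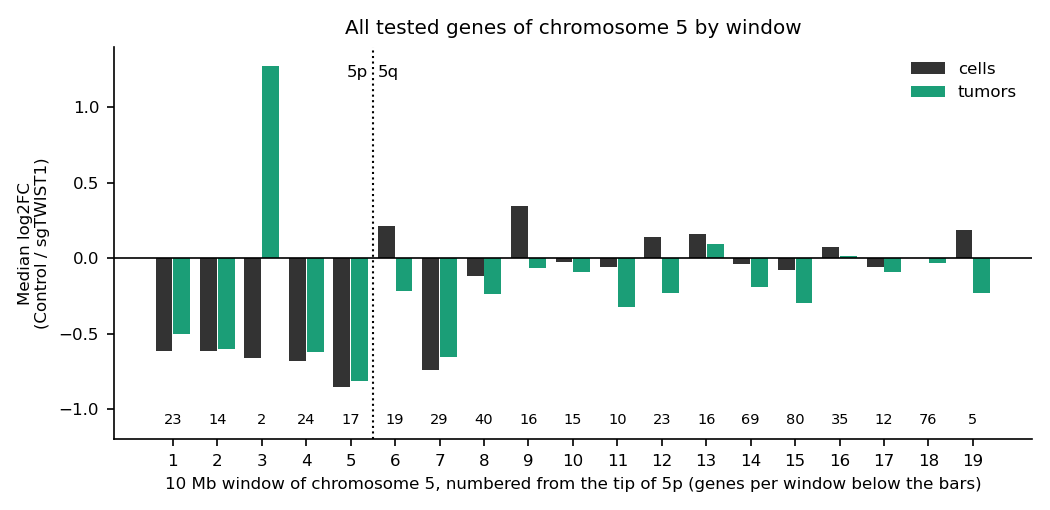
Median log2(FC) of Control relative to sgTWIST1 (vertical axis) over all tested genes in consecutive 10 Mb windows of chromosome 5, in cells (black bars) and tumors (green bars), with the number of genes under each pair. Windows 1, 2, 4 and 5 on 5p and window 7 on 5q are at or below −0.50 in both; window 3 rests on 2 genes.

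Members that act on chromosomes and the cell cycle had a median log2(FC) of −0.90 in cells and −0.38 in tumors, over 7 genes. FBXO4, an F-box protein of a ubiquitin ligase, measured 7.07, 6.47 and 5.35 CPM in Control cells against 15.7, 14.2 and 14.5 in sgTWIST1 cells. It measured 4.63, 6.82, 4.99 and 4.74 CPM in Control tumors against 11.8, 11.1, 10.9 and 11.5 in sgTWIST1 tumors, which gave −1.23 ± 0.19 (SE) in cells and −1.08 ± 0.20 in tumors as log2(FC). Neither pair of groups overlapped.
SKP2, the substrate receptor of the ligase that degrades p27, went the other way, with 354, 246 and 313 CPM in Control cells against 152, 191 and 230 in sgTWIST1 cells. Its values were 218, 201, 237 and 270 CPM in Control tumors against 223, 181, 195 and 216 in sgTWIST1 tumors, where the groups overlapped. The log2(FC) was 0.67 ± 0.20 (SE) in cells and 0.20 ± 0.12 in tumors.

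SKP2 and LMBRD2, a membrane protein gene on the opposite strand, start from windows that share 277 of 300 bases, printed above for SKP2. LMBRD2 measured 62.2, 63.6 and 64.6 CPM in Control cells against 110, 104 and 129 in sgTWIST1 cells. In tumors it measured 51.1, 44.2, 49.0 and 55.8 CPM in Control tumors against 130, 107, 108 and 94.5 in sgTWIST1 tumors. Its log2(FC) of −0.85 ± 0.12 (SE) in cells and −1.12 ± 0.12 in tumors had the opposite sign to that of SKP2, and no Control sample reached an sgTWIST1 sample. SKP2 and LMBRD2 do not overlap in the annotation used here, but the far end of SKP2 overlaps NADK2 on the opposite strand, which was at −1.04 in cells and −1.34 in tumors.
RAD1, part of the 9-1-1 clamp that marks damaged DNA, and BRIX1, a factor for assembly of the large ribosomal subunit, share 294 bases of their windows. Both were lower in Control, with −1.34 ± 0.24 (SE) and −0.78 ± 0.22 in cells and −0.95 ± 0.11 and −0.32 ± 0.11 in tumors. RAD1 and BRIX1 also overlap on opposite strands, and the strand setting is not given in the sources used here. Their reads may thus have been divided between them. None of their counts was a whole number, but this also held for CCT5, PDCD6 and PAIP1, which no protein-coding gene overlaps. For NNT and FAM134B, 94.7% and 78.9% of values were not whole.
BRD9, a subunit of a chromatin remodelling complex, and TRIP13, an ATPase of the spindle checkpoint, share 167 bases. BRD9 was at −0.45 ± 0.11 (SE) in cells and −0.23 ± 0.13 in tumors, and TRIP13 at −1.23 ± 0.45 and −0.38 ± 0.10. In cells TRIP13 was not called, with an adjusted p above 0.05 in edgeR's quasi-likelihood test. Control clone 2 was at 19.8 CPM beside 81.9 and 64.4 in clones 1 and 3. Without that clone the value was −0.83 ± 0.14, short of the fold threshold. TRIP13 passed both thresholds in cells with the replicate block (−1.43 ± 0.38), DESeq2 (−1.23) and all 4 groups in 1 fit (−1.23). It also passed with filterByExpr of edgeR (−1.45), with no filter on low counts (−1.35) and without Control clone 1 (−1.63). As this contrast chose the list, these values are a description.

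Genes of RNA processing, ribosome assembly, translation and protein folding were all negative, 10 of 10 in cells and in tumors, with medians of −0.67 and −0.34. SUB1, a transcriptional coactivator, measured 212, 154 and 193 CPM in Control cells against 371, 388 and 401 in sgTWIST1 cells. It measured 185, 185, 179 and 217 CPM in Control tumors against 436, 421, 337 and 362 in sgTWIST1 tumors. Its log2(FC) was −1.05 ± 0.14 (SE) in cells and −1.005 ± 0.12 in tumors, with no overlap of the groups. Leaving out Control clone 2 moved the value in cells to −0.94.
ZFR, an RNA-binding zinc finger protein, changed least in this group, with 254, 241 and 225 CPM in Control cells against 258, 266 and 281 in sgTWIST1 cells. In tumors it was at 280, 276, 239 and 297 CPM in Control tumors against 360, 358, 246 and 315 in sgTWIST1 tumors, so the groups overlapped there. CCT5, a subunit of the TRiC chaperonin, had the highest level per length of the members, at 89.7 ± 22.7 RPKM (SD, n = 3) in Control cells and 151 ± 9.91 in sgTWIST1 cells.

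The 11 genes of mitochondria and metabolism were also all negative, with medians of −0.77 in cells and −0.90 in tumors. CMBL, a cytosolic hydrolase, measured 3.74, 8.61 and 6.93 CPM in Control cells against 21.6, 21.2 and 34.4 in sgTWIST1 cells. It measured 6.46, 5.26, 4.62 and 5.74 CPM in Control tumors against 43.4, 46.0, 33.2 and 43.1 in sgTWIST1 tumors. The sgTWIST1 mean was thus 4.00-fold higher in cells and 7.42-fold higher in tumors by the fit, and CMBL passed the expression threshold only through the sgTWIST1 groups.
NNT, the transhydrogenase that supplies mitochondrial NADPH, was at −1.11 ± 0.12 (SE) in cells and −1.25 ± 0.15 in tumors. MRPS30 and MRPL36, proteins of the mitochondrial ribosome, were at −0.94 and −0.77 in cells and at −1.06 and −0.70 in tumors. PRKAA1, a catalytic subunit of AMP-activated protein kinase, was at −1.14 and −0.90.
MTRR, which keeps methionine synthase active, changed least of this group in tumors. It measured 48.3, 40.1 and 38.1 CPM in Control cells against 55.3, 46.9 and 67.4 in sgTWIST1 cells. Its tumor values were 35.3, 36.3, 33.7 and 36.6 CPM in Control tumors against 39.6, 39.5, 41.4 and 44.7 in sgTWIST1 tumors. The groups overlapped in cells and were close but apart in tumors.
SRD5A1, a steroid 5-alpha reductase, and ANKH, a membrane protein of pyrophosphate export, had small differences in cells (−0.22 and −0.28) and larger ones in tumors (−1.13 ± 0.15 SE and −1.15 ± 0.13). SRD5A1 measured 50.3, 61.7 and 44.1 CPM in Control cells against 53.5, 62.9 and 65.2 in sgTWIST1 cells. In tumors SRD5A1 measured 29.4, 26.3, 39.0 and 35.7 CPM in Control tumors against 79.5, 66.7, 60.3 and 81.7 in sgTWIST1 tumors. ANKH measured 33.7, 39.4 and 34.2 CPM in Control cells against 49.2, 45.2 and 35.5 in sgTWIST1 cells. In tumors ANKH measured 33.4, 36.7, 39.4 and 37.1 CPM in Control tumors against 73.4, 96.3, 92.7 and 67.0 in sgTWIST1 tumors. For both, the groups overlapped in cells and were apart in tumors.

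Among members of membrane traffic, 6 of 6 tested were negative, with medians of −0.77 in cells and −0.83 in tumors. FAM134B, a receptor for autophagy of the endoplasmic reticulum, had the lowest log2(FC) of all members in tumors. It measured 31.0, 26.5 and 26.2 CPM in Control cells against 94.1, 76.6 and 92.1 in sgTWIST1 cells. In tumors it measured 5.999, 6.55, 4.81 and 4.58 CPM in Control tumors against 107, 165, 102 and 100 in sgTWIST1 tumors. The log2(FC) was −1.65 ± 0.13 (SE) in cells and −4.42 ± 0.21 in tumors, or 3.14-fold and 21.5-fold higher in sgTWIST1, and FAM134B passed the threshold only through the sgTWIST1 groups. EXOC3, a subunit of the exocyst that tethers secretory vesicles, changed least. It measured 28.5, 38.3 and 30.5 CPM in Control cells against 42.9, 43.5 and 48.2 in sgTWIST1 cells. It measured 46.7, 44.2, 45.4 and 35.2 CPM in Control tumors against 56.0, 59.5, 59.7 and 62.9 in sgTWIST1 tumors, and neither pair of groups overlapped.

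Genes of the cytoskeleton and neurites were mixed. PDZD2, a protein with several PDZ domains, was the one tested member called higher in Control. It measured 79.8, 91.4 and 65.3 CPM in Control cells against 2.26, 3.55 and 5.69 in sgTWIST1 cells. In tumors it measured 49.97, 45.2, 55.4 and 58.6 CPM in Control tumors against 16.9, 35.4, 27.6 and 17.5 in sgTWIST1 tumors. The log2(FC) was 4.40 ± 0.34 (SE) in cells and 1.13 ± 0.23 in tumors, and PDZD2 passed the threshold only through the Control groups. Without sgTWIST1 tumor 1 or 4, the tumor value was 0.984 or 0.997 and fell short of the fold threshold.
BASP1, a membrane-bound protein of growth cones, had opposite signs in cells and tumors. It measured 86.5, 63.8 and 69.4 CPM in Control cells against 111, 145 and 103 in sgTWIST1 cells. In tumors it measured 163, 195, 138 and 146 CPM in Control tumors against 118, 125, 86.9 and 76.2 in sgTWIST1 tumors. Every Control clone was below every sgTWIST1 clone, and every Control tumor was above every sgTWIST1 tumor.
TRIO, a protein of axon growth, measured 324, 288 and 298 CPM in Control cells against 508, 450 and 453 in sgTWIST1 cells. In tumors it measured 337, 334, 367 and 323 CPM in Control tumors against 362, 432, 452 and 405 in sgTWIST1 tumors, with overlap. RAI14 and MYO10, both actin-binding, did not pass the threshold and are named for their values: RAI14 had 60 to 73 counts in Control cells, 14 to 27 in sgTWIST1 cells, 194 to 367 in Control tumors and 0 to 37 in sgTWIST1 tumors. MYO10 had 41 to 76, 8 to 40, 105 to 150 and 18 to 89 counts in the same groups. With other filters on low counts that kept both genes, MYO10 passed both thresholds as higher in Control cells, at 1.55 with filterByExpr of edgeR and 1.65 with no filter. RAI14 did so in Control cells with no filter (1.45) and in Control tumors with each of them (3.47 and 3.17). CTNND2, a catenin of neuronal junctions, had 0 to 48 counts in every sample.
In tumors the murine genes of the same name held 67 to 1038 counts for RAI14 and 95 to 1892 for MYO10 in Control, and 214 to 476 and 570 to 1009 in sgTWIST1. Reads that matched both genomes were kept as human.

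Of the receptors and signalling genes, DAP and RICTOR were tested. DAP, a death-associated protein, measured 39.6, 43.1 and 45.4 CPM in Control cells against 64.7, 54.9 and 75.1 in sgTWIST1 cells. It measured 42.6, 30.1, 51.3 and 42.3 CPM in Control tumors against 74.2, 97.7, 93.3 and 91.1 in sgTWIST1 tumors, and the log2(FC) came to −0.60 ± 0.14 (SE) in cells and −1.08 ± 0.16 here. RICTOR, which defines mTOR complex 2, measured 40.1, 48.4 and 50.2 CPM in Control cells against 51.6, 62.0 and 62.0 in sgTWIST1 cells. In tumors it measured 65.3, 62.4, 60.8 and 65.0 CPM in Control tumors against 108, 116, 120 and 93.5 in sgTWIST1 tumors, and the values on the same scale were −0.34 ± 0.14 and −0.77 ± 0.10. The groups did not overlap for either gene. OSMR, GHR and PTGER4, receptors for oncostatin M, growth hormone and prostaglandin E2, and DAB2, an endocytic adaptor, had at most 64, 51, 46 and 58 human counts in any sample.
The members without a settled role, CCDC127, TTC33 and WDR70, were negative throughout. TTC33 measured 24.1, 21.3 and 25.8 CPM in Control cells against 26.6, 29.8 and 39.7 in sgTWIST1 cells. It measured 21.9, 18.7, 21.2 and 25.4 CPM in Control tumors against 35.6, 37.8, 37.1 and 40.7 in sgTWIST1 tumors. WDR70 measured 30.6, 38.8 and 35.6 CPM in Control cells against 42.1, 44.7 and 48.1 in sgTWIST1 cells. It measured 41.0, 43.1, 37.5 and 38.5 CPM in Control tumors against 54.4, 52.8, 50.4 and 47.8 in sgTWIST1 tumors. No Control sample reached an sgTWIST1 sample for either gene.

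Tumors were then compared with cultured cells of the same genotype, a contrast that the choice of members did not use. The median log2(FC), tumors relative to cells, was −0.03 over the 42 members in Control and 0.05 in sgTWIST1, beside −0.01 and 0.01 over all genes. In Control, 3 of 42 members passed both thresholds (7.14%), beside 11.8% of all 10889 genes. In sgTWIST1 it was 3 of 42 (7.14%), beside 12.7%. Without the fold threshold 13 and 18 members passed, or 31.0% and 42.9%, beside 37.7% and 40.5% of all genes, in either direction. EXOC3, LPCAT1, PAPD7, NIPBL, RICTOR and PRKAA1 passed in both genotypes. All adjusted p-values are from edgeR's quasi-likelihood test with Benjamini-Hochberg adjustment over all genes. In bulk tumors, fewer cells that express a gene and less RNA per cell cannot be told apart.

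**Figure D4:**
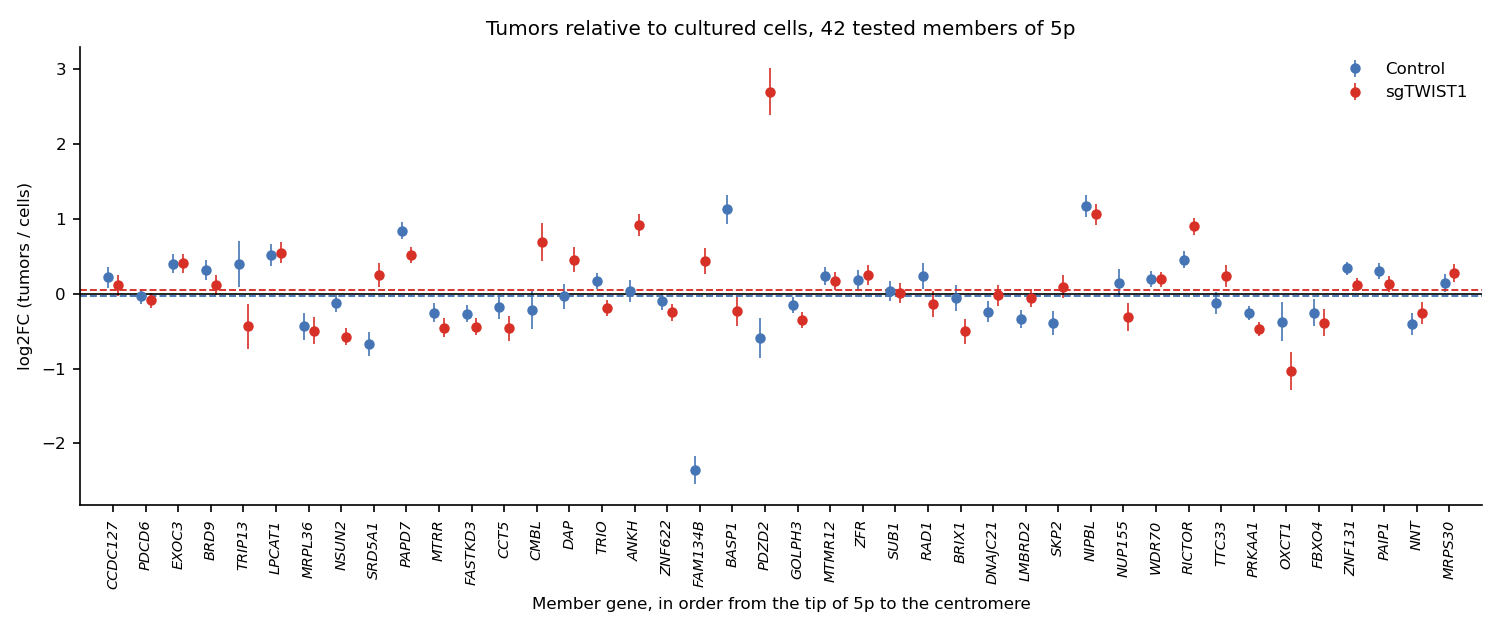
Log2(FC) of tumors relative to cultured cells (vertical axis, with standard error) for the 42 tested members in their order along 5p, in Control (blue) and sgTWIST1 (red). Dashed lines mark the medians of −0.03 and 0.05; FAM134B stands out in Control and PDZD2 in sgTWIST1.

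NIPBL, which loads cohesin onto chromosomes, rose in tumors of both genotypes. The values, in Control, were 108, 93.6 and 109 CPM in cells and 266, 198, 210 and 260 in tumors. In sgTWIST1 they were 151, 122 and 151 in cells and 310, 328, 305 and 237 in tumors. In Control the rise was 1.18 ± 0.15 on the log2 scale (SE, adjusted p = 4.63e-05), and sgTWIST1 gave 1.06 ± 0.15 (adjusted p = 8.2e-05). Every tumor was above every cell sample of its genotype. In sgTWIST1 NIPBL fell short of the fold threshold without clone 2 (0.965) or without tumor 2 (0.997), and also with filterByExpr (0.707) or no filter on low counts (0.855). With no filter NIPBL fell short in Control as well (0.94). PAPD7, a non-canonical poly(A) polymerase, also rose, by 0.84 ± 0.11 (adjusted p = 8.73e-05) in Control and 0.52 ± 0.11 (adjusted p = 0.00238) in sgTWIST1, without reaching the fold threshold. Its values were 56.3, 41.4 and 48.1 CPM in Control cells, 91.8, 86.5, 83.7 and 87.1 in Control tumors, 76.4, 74.5 and 83.0 in sgTWIST1 cells and 99.0, 115, 123 and 110 in sgTWIST1 tumors.

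FAM134B fell in Control tumors, to −2.36 ± 0.19 on the log2(FC) scale (SE, adjusted p = 1.45e-06), and every Control tumor was below every Control clone. In sgTWIST1 it was at 0.44 ± 0.18 (adjusted p = 0.0625). Murine counts of the same gene were 11 to 127 in Control tumors, beside 122 to 158 human counts. Several other genes of the arm had the same form. C7, a complement component, was at −3.47 ± 0.27 (adjusted p = 1.45e-06) in Control tumors against cells and at −0.12 ± 0.26 (adjusted p = 0.734) in sgTWIST1. LIFR, a cytokine receptor, was at −1.68 ± 0.18 (adjusted p = 1.19e-05) and 0.14 ± 0.17 (adjusted p = 0.558), and PLCXD3 at −1.66 ± 0.27 (adjusted p = 0.000375) and 0.09 ± 0.27 (adjusted p = 0.812). The difference between genotypes was not tested for these genes.

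BASP1 rose in Control tumors by 1.13 ± 0.20 (SE, adjusted p = 0.000561) and was at −0.24 ± 0.19 (adjusted p = 0.333) in sgTWIST1. PDZD2 rose in sgTWIST1 tumors by 2.70 ± 0.32 (adjusted p = 2.52e-05) and was at −0.59 ± 0.27 (adjusted p = 0.102) in Control. Murine Pdzd2 counts were 95 to 180 in sgTWIST1 tumors, beside 459 to 766 human counts.
OXCT1, the enzyme that starts the use of ketone bodies, fell in sgTWIST1 tumors by 1.03 ± 0.25 on the log2 scale (log2(FC) −1.03, adjusted p = 0.00548). It measured 174, 145 and 170 CPM in sgTWIST1 cells and 108, 86.0, 44.9 and 79.2 in sgTWIST1 tumors, beside 82.9, 41.0 and 74.0 in Control cells and 49.8, 51.6, 43.5 and 59.2 in Control tumors. Tumor 3 was the lowest of its group, and without it the value was −0.84 (adjusted p = 0.0094). Without sgTWIST1 clone 1 it was −0.98 (adjusted p = 0.0225). ANKH rose in sgTWIST1 tumors by 0.92 ± 0.15 (adjusted p = 0.000273) and RICTOR by 0.90 ± 0.12 (adjusted p = 5.27e-05), short of the fold threshold. SRD5A1 in Control tumors was at −0.67 ± 0.16 (adjusted p = 0.0047). Without sgTWIST1 clone 1 or tumor 4, ANKH was at 1.027 or 1.002 and passed both thresholds.

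Several members are single subunits of complexes whose other subunits are encoded elsewhere, so 49 partners of 10 complexes were compared between Control and sgTWIST1, and 48 were tested. In cells no partner was called lower and 1 was called higher in Control, beside 6.25% and 8.28% of all genes tested. In tumors 2 were lower and 2 were higher, beside 7.47% and 6.81% of all genes tested. Their median log2(FC) was −0.05 in cells and 0.08 in tumors. For the TRiC chaperonin, CCT5 was at −0.63 in cells and −0.34 in tumors, whereas its 7 partners had medians of 0.25 and 0.09, with no call. The 4 partners of NUP155 in the inner ring of the nuclear pore had medians of −0.07 and 0.26, beside −0.90 and −0.43 for NUP155.
For NIPBL the 6 partners in cohesin and its loader had a median of −0.39 in cells, with all 6 negative, and 0.14 in tumors. In the clamp of RAD1, the loader subunit RAD17, a 5q gene, was at −0.93 ± 0.14 (SE, adjusted p = 0.00221) in cells and −1.14 ± 0.12 (adjusted p = 3.99e-05) in tumors. RAD9A was at 0.41 and 0.53 and HUS1 at 0.16 and −0.28.
For RICTOR, the mTOR complex 2 subunits PRR5 and MAPKAP1 were higher in Control tumors, at 1.16 ± 0.27 (adjusted p = 0.00531) and 1.09 ± 0.09 (adjusted p = 1.21e-05), and PRR5 in cells at 1.84 ± 0.21 (adjusted p = 0.000793). MTOR was at −0.29 and −0.13 and MLST8 at −0.31 and 0.25. For PRKAA1, the 4 tested partners had medians of 0.07 in cells and −0.07 in tumors. The regulatory subunit PRKAG2 was at −0.92 in cells and −1.12 ± 0.21 (adjusted p = 0.00146) in tumors, where it was called lower. PRKAB1 was at 0.23 and 0.47, PRKAG1 at −0.08 and 0.26, and PRKAB2 at 0.79 and −0.40. No partner of EXOC3, BRD9, SKP2 or OSMR was called, at medians of −0.08, −0.11, −0.10 and 0.69 in cells and −0.24, 0.14, 0.00 and −0.30 in tumors.

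Beyond the list, a few genes of the arm differed far more than its median. SLC1A3, a glutamate transporter, was at 0.939 ± 0.487 CPM (SD, n = 3) in Control cells and 47.5 ± 7.61 in sgTWIST1 cells, or −5.69 ± 0.35 (SE) as log2(FC), and at −4.60 ± 0.69 in tumors. C7 was at −1.33 ± 0.27 in cells and −4.67 ± 0.26 in tumors, LIFR at −0.40 ± 0.17 and −2.20 ± 0.16, and PLCXD3 at −0.86 ± 0.31 and −2.58 ± 0.21. GDNF, a neurotrophic factor, was higher in Control, at 5.24 ± 0.40 in cells and 3.11 ± 0.70 in tumors. TERT, the catalytic subunit of telomerase, did not pass the threshold, with 22 to 73 counts per cell sample and 52 to 162 per tumor.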

How the data were processed

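Per the labels, total RNA was depleted of ribosomal RNA and sequenced as single reads of 100 bases. The expected counts per gene deposited by the authors are estimates, made with STAR 2.5.2b and RSEM 1.3.0 on hg19 and mm10 per the submitters' processing notes; reads that matched both genomes stayed human. The authors' notes also name DESeq2 1.26.0. The strand setting is not given in the sources used here.

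Values were rounded, and the batches of a clone were summed (sgTWIST1 clone 3 had batch 1 only), giving 14 samples from 19 columns. Protein-coding genes with log2 RPKM above 1 in at least 1 sequenced library were kept (10889 genes). TMM scaling and edgeR 4.0.16 quasi-likelihood tests (R 4.3.3) were used with Benjamini-Hochberg adjustment. Control and sgTWIST1 were compared in cells and in tumors separately, and tumors with cells in 1 fit over 4 groups. DESeq2 1.42.0, other scalings, filters, a replicate block and left-out samples were alternatives. The procedure was tested on simulated data. Intervals and errors cover these samples only.

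The members, their roles, the partner list and the marker lists (sympathetic neuroblast, fibroblast, leukocyte, endothelial cell, adrenal cortex cell) were chosen with earlier results of these data known. CPM in every sample are given for the member with the largest and the smallest log2(FC) in tumors in each role, members called higher in Control, and the 5 with the largest log2(FC) between tumors and cells of each genotype; of other 5p genes, TERT, SLC1A3, C7, LIFR and the 5 with the largest log2(FC) in tumors are named, except 1 that is not reported here. LMBRD2, RAI14 and MYO10 were added after their values were seen, as was the fit of batch 2.

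Same-numbered Control and sgTWIST1 clones deviated together, with correlations from 0.1002 to 0.3156 over genes, the lowest only just above the limit of 0.1 set for pairing; tumor numbers did not (−0.191 to 0.283). The pairing of clones comes from these values, not from the labels.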

Additional observations from a re-analysis of the deposited data

Results flagged for a closer look

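In 98 groups of 4 tumors, 7 held a sample far from the other 3 by Dixon's criterion, which marks about 5% of groups by chance, and 4 of the 7 were Control tumor 2. That tumor was at 2.58 CPM for CTNND2, 3.44 for OSMR, 2.47 for PTGER4 and 6.82 for FBXO4, where the others reached at most 0.380, 0.721, 0.533 and 4.99. Control tumor 2 also had the lowest murine share of the tumors (2.44%). Control tumor 3 was at 82.6 CPM for PDCD6, beside at most 70.6. For BRD9, sgTWIST1 tumor 3 was at 121 CPM, beside at most 91.6, and for FAM134B, sgTWIST1 tumor 2 was at 165 CPM, beside at most 107.

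For 3 members every sample moved in opposite directions in the groups set side by side, and these differences were not tested. The log2(FC) of tumors relative to cells was lower in Control than in sgTWIST1 for PDZD2 (a difference of −3.29), and the difference for FAM134B was −2.79. For BASP1 the log2(FC) of Control relative to sgTWIST1 was higher by 1.38 in tumors than in cells.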

How the results depend on the processing

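No member that was called, or called under an alternative, changed sign. With adjusted p alone the members counted were 34 in cells, 34 in tumors, 13 for Control tumors against cells and 18 for sgTWIST1 tumors against cells, in place of 10, 12, 3 and 3. The median in cells was −0.74 with total counts, and the mean in tumors was −0.69 in place of the median of −0.52. With no filter on low counts (any protein-coding gene with a count) only FAM134B passed among Control tumors against cells (1 member), since BASP1 (0.87) and NIPBL (0.94) fell short of the fold threshold. The members called, out of 49, numbered 15 in cells (13 lower in Control), 12 in tumors (10 lower), 3 and 2 with filterByExpr on all gene types. With no filter they numbered 15 (12 lower), 16 (14 lower), 1 and 2. MYO10, RAI14 and PDZD2 were the members higher in Control. These filters moved the median of all genes by −0.22 and −0.11 in cells, 0.04 and −0.14 in tumors, −0.10 and −0.25 for Control tumors against cells and −0.31 and −0.19 for sgTWIST1. SUB1 in tumors was at −0.97 with filterByExpr. Leaving out 1 sample gave −0.75 to −0.62 for the median in cells (the lowest without Control clone 1) and −0.55 to −0.50 in tumors. It gave 10 to 12 members called in cells, 10 to 13 in tumors, 3 in each case for Control tumors against cells and 2 to 4 for sgTWIST1. Members lower in every Control sample then numbered 37 to 39 in cells and 31 to 36 in tumors. Without Control tumor 2 DAP was at −0.96, without sgTWIST1 tumor 2 MRPS30 at −0.99, and SUB1 in tumors was −0.94 to −0.995 without any 1 of 5 tumors, all short of the fold threshold. The replicate block (pairing by number) gave 11, 11, 3 and 3 members called and medians of −0.67 and −0.52; besides TRIP13 in cells, it changed only the call of SUB1 in tumors, which fell just short of the fold threshold. Batches 1 and 2 alone each gave 10 members in cells, with medians of −0.66 and −0.65. The 7 members not tested fell under the RPKM threshold, at no more than 367 counts per sample.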
